A study of Mus musculus with 6 samples.

Results

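The genes described here encode the DNA-binding subunits of NF-kB and the proteins that restrain them. Of 10 listed genes, 9 were analysed, among 25206 probe sets in all: the subunit genes Nfkb2, Rel, Rela and Relb, and the inhibitor genes Nfkbia, Nfkbib, Nfkbie, Nfkbiz and Tnfaip3. They were chosen by name, each probe set being an Entrez gene number paired with a symbol by the platform annotation. The listed gene left out is Nfkb1, which encodes p105 and p50. Its probe set is among 2021 for which that annotation gave no symbol, so the naming step dropped it. That does not mean that the array lacks Nfkb1, and every count and mean of subunits is incomplete without it. Their transcripts were measured on 6 Affymetrix arrays of mouse bone marrow-derived macrophages, 3 from cells given the Hsp70 inhibitor JG-98 at 0.3 micromole for 16 hours and 3 from untreated cells (controls). The labels give that dose as an amount with no volume, and no vehicle, strain or age is given in the sources used here. The question is whether blocking Hsp70 chaperones altered the transcripts of either arm of NF-kB, the subunits or their inhibitors.

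NF-kB proteins are transcription factors that act as dimers. In resting macrophages most dimers are held in the cytoplasm by inhibitors of the IkB family. When a Toll-like, TNF or interleukin receptor fires, the IKK kinases phosphorylate the IkB proteins, which are then ubiquitinated and degraded, and the freed dimers switch on cytokine and chemokine genes. Several IkB genes, and the gene of the ubiquitin-editing enzyme A20, are themselves NF-kB targets, so that the response limits itself. These arrays measured transcripts, not IkB degradation or nuclear NF-kB.

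The stretch before the start site is shown for 4 genes: for Nfkbie and Tnfaip3, whose values in the JG-98 and control groups did not overlap, and for Nfkbia and Nfkb2, textbook feedback targets of NF-kB whose values did overlap. Each line gives 250 bases, 5′ to 3′ on the gene's own strand, from RefSeq on build GRCm38.p6, and capitals mark matches to the kB consensus, the DNA element that NF-kB dimers bind, on either strand. Where several start sites are annotated, the one with most matches is shown.
Nfkbie, chr17:45555450-45555699, strand +: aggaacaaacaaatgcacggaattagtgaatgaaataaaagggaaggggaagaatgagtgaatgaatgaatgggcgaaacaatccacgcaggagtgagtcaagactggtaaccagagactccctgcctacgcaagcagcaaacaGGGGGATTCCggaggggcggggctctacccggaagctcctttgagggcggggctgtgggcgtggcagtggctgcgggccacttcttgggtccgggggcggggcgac
Tnfaip3, chr10:19015411-19015660, strand -: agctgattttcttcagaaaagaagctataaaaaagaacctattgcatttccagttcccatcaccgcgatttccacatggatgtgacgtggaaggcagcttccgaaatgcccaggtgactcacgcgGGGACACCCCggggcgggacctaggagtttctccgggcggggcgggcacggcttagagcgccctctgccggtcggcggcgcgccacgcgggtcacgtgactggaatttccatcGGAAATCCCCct
Nfkbia, chr12:55492648-55492897, strand -: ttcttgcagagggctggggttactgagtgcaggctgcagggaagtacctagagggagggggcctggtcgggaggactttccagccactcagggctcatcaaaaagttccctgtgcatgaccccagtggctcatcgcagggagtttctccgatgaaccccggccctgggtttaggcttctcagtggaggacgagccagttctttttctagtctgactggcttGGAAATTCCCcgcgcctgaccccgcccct
Nfkb2, chr19:46304487-46304736, strand +: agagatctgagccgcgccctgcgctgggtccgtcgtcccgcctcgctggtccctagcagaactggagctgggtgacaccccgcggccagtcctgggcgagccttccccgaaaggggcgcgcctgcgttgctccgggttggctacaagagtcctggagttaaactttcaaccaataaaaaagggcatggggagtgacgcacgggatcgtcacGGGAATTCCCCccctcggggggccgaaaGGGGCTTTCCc
Nfkbie held 1 match (GGGGGATTCC) and Nfkbia 1 (GGAAATTCCC, which lies on the opposite strand). Tnfaip3 held 2 separate matches at the start site shown and none at its other annotated start site. Nfkb2 held 4, counted on both strands, of which 3 overlap in 1 run of capitals. Of the 9 genes, 7 had a sequence in the table, and 5 of these held at least 1 match, the fifth being Rel. The stretches of Nfkbib and Rela held none. Counted by stretch, since some genes have several, 7 of 10 held a match, beside 3.90% of all 32851 stretches in the table. Several of the 7 belong to Nfkb2, and some of its stretches share bases, so the 10 are not separate cases. No share by gene was computed for the whole table, so the 5 of 7 genes have no background beside them. The matches describe letters only, and both the gene that was lower with JG-98 and the gene that was higher carried them.

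The medians of the 6 arrays ran over 4.08 to 4.24 (log2), and JG-98 replicate 3, with the highest, stood apart: its correlation with the other arrays was 0.992 to 0.993, and the highest correlation of each other array was 0.996. All 10 measured macrophage markers, among them Csf1r, Adgre1 and Spi1, had means of 8.36 to 12.0, above 5.57, the 95th percentile of 36 genes specific to other tissues. Of 56 markers of 7 other classes of cell, 3 lay above it, namely Mmp8, Tfrc and Kdr, and none of the B cell, T and NK cell, mast cell or dendritic cell markers did. The summed log2 level of the macrophage markers was 104.75, 104.64 and 103.98 on JG-98 arrays, against 105.18, 105.34 and 104.89 on control arrays, so those groups did not overlap. That of the 4 measured erythroid markers was 18.7 to 18.9 on JG-98 arrays and 17.9 to 18.4 on control arrays, also without overlap. Among these markers only Tfrc, which dividing cells of many types express, had groups that did not overlap, and it was 0.32 ± 0.089 higher with JG-98. It was also the only erythroid marker above 5.57, so the sum does not describe an erythroid shift. Mmp8, a neutrophil collagenase, averaged 6.25 in JG-98 samples and 7.02 in control samples, without overlap, a difference of -0.77 ± 0.082 (limma adjusted p = 0.089). It was the only 1 of 12 measured neutrophil markers above 5.57, and 9 of the 12 had a difference above 0. The part of these shifts in the results below was not tested. In bulk RNA, fewer cells of a type and less RNA per cell cannot be told apart.

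With JG-98 the 4 subunit transcripts lay close to their control levels, and the inhibitors split. Nfkbie, which encodes IkB epsilon, was lower by 0.31 on the log2 scale, and Tnfaip3, which encodes A20, was higher by 0.26, while Nfkbia, Nfkbib and Nfkbiz differed by 0.06 or less. None of the 9 passed an adjusted p under 0.05 in limma over all probe sets, where 0.0397% of probe sets did. Nfkbie and Tnfaip3 were past an unadjusted p under 0.05 in limma, as were 8.32% of all probe sets, and they were the 2 genes whose groups did not overlap, which held for 15.6% of all probe sets. Brighter probe sets met these marks more often: above the 95th percentile of the genes of other tissues, where 8 of the 9 members lay, 13.3% were past the unadjusted p and 28.4% had groups that did not overlap. Nothing in the labels ties a replicate to its own animal or culture, and the p-values therefore measure a spread that may be technical. Without JG-98 replicate 3, 4 members had groups that did not overlap (Nfkb2 and Nfkbie lower, Nfkbib and Tnfaip3 higher), as did 30.4% of all probe sets.

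**Figure D1:**
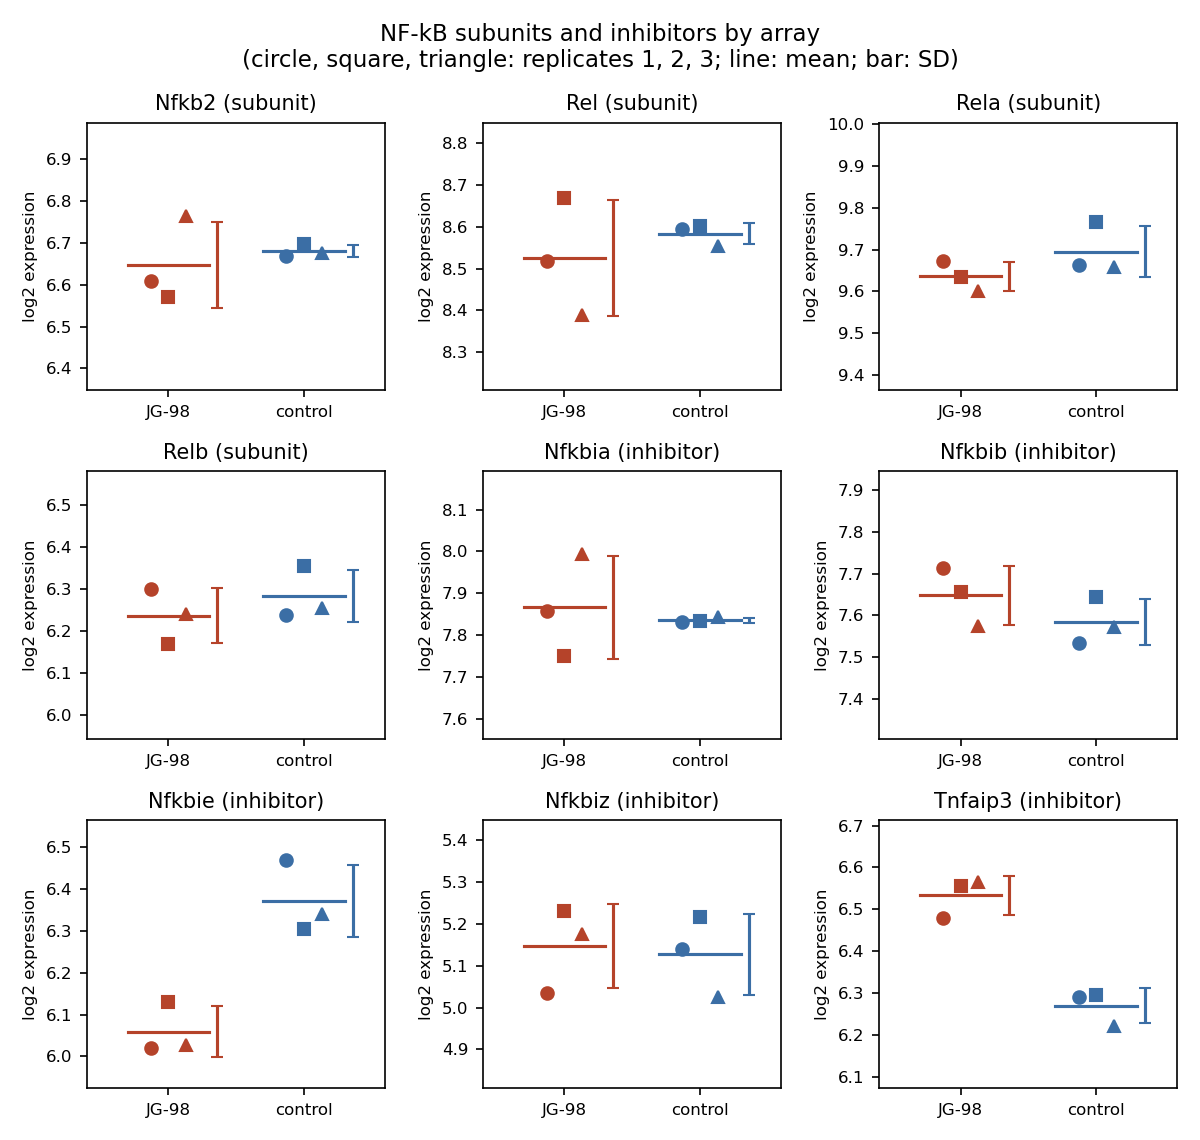
Log2 expression of the 9 genes on each array, with JG-98 left of control in every panel (circle, square and triangle for replicates 1, 2 and 3, line for the mean, bar for the SD, n = 3 per group). All panels span the same number of log2 units. The groups separate for Nfkbie, with JG-98 at 6.02 to 6.13 and control at 6.30 to 6.47, and for Tnfaip3, with JG-98 at 6.48 to 6.56 and control at 6.22 to 6.30.

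Rela encodes RelA (p65), the subunit with a strong activation domain that pairs with p50 in the classical pathway. Its log2 levels were 9.67, 9.63 and 9.60 in JG-98 samples, against 9.66, 9.77 and 9.66 in control samples. The groups overlapped, with JG-98 replicate 1 above 2 of the 3 controls. Rela differed by -0.06 ± 0.066 (SE, n = 3 per group; limma adjusted p = 0.87), with a 95% interval of -0.22 to 0.10. Rel encodes c-Rel, the subunit prominent in myeloid and lymphoid cells. Its levels were 8.52, 8.67 and 8.39 in JG-98 samples and 8.59, 8.60 and 8.55 in control samples. The JG-98 samples lay on either side of the controls and were more spread, with an SD of 0.139 against 0.026 in control samples. The difference was -0.06, with a 95% interval of -0.26 to 0.15.

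Relb and Nfkb2 belong to the noncanonical pathway, in which the p100 protein made from Nfkb2 is processed to p52 and pairs with RelB. Relb had levels of 6.30, 6.17 and 6.24 in JG-98 samples, against 6.24, 6.35 and 6.26 in control samples. These groups overlapped, and the difference was -0.05 (95% interval -0.22 to 0.12). Nfkb2 had levels of 6.61, 6.57 and 6.76 in JG-98 samples, against 6.67, 6.70 and 6.68 in control samples. JG-98 replicates 1 and 2 were below every control and JG-98 replicate 3 above every control. The difference was -0.03 (95% interval -0.21 to 0.15) with all arrays and -0.09 (95% interval -0.24 to 0.06) without JG-98 replicate 3. All 4 subunits had a difference below 0, as did 49.7% of all probe sets, and all 4 intervals held 0.

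Nfkbia encodes IkB alpha, the inhibitor that is degraded and resynthesised fastest after a stimulus. Its levels were 7.86, 7.75 and 7.99 in JG-98 samples, against 7.83, 7.83 and 7.84 in control samples. The controls lay close together, with an SD of 0.123 in JG-98 samples against 0.0059 in control samples, and the JG-98 samples fell on either side of them. The difference was 0.03 ± 0.080 (limma adjusted p = 0.95), with a 95% interval of -0.16 to 0.22. Nfkbib encodes IkB beta, a more slowly degraded relative. Its levels were 7.71, 7.66 and 7.57 in JG-98 samples, against 7.54, 7.64 and 7.57 in control samples. JG-98 replicates 1 and 2 exceeded every control and JG-98 replicate 3 did not. The difference was 0.06 (95% interval -0.10 to 0.23), and 0.10 (95% interval -0.07 to 0.27) without that array.

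Nfkbie encodes IkB epsilon, an inhibitor that, like IkB alpha, holds RelA and c-Rel dimers and is itself induced by NF-kB, with a delay. Its levels were 6.02, 6.13 and 6.03 in JG-98 samples, against 6.47, 6.30 and 6.34 in control samples. Every JG-98 sample was below every control, and the nearest values of the groups were JG-98 replicate 2 and control replicate 2. The difference of -0.31 ± 0.075 is a level 1.24-fold lower with JG-98, with a 95% interval of -0.49 to -0.13 (limma adjusted p = 0.36, unadjusted p = 0.0049). It was -0.30 without JG-98 replicate 3, and between -0.35 and -0.26 when any other array was left out.

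Tnfaip3 encodes A20, which edits ubiquitin chains on RIP1, TRAF6 and NEMO and so shuts signalling down above IKK. Its levels were 6.48, 6.56 and 6.56 in JG-98 samples, against 6.29, 6.30 and 6.22 in control samples. Every JG-98 sample was above every control. The difference of 0.26 ± 0.065 is a level 1.20-fold higher with JG-98, with a 95% interval of 0.11 to 0.42 (limma adjusted p = 0.37, unadjusted p = 0.0053). It was 0.25 without JG-98 replicate 3, and 0.24 to 0.29 when any other array was left out.

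Both calls turned on which probe sets were tested. When only the 8994 probe sets above the 95th percentile of the genes of other tissues were fitted, Nfkbie fell (limma adjusted p = 0.040) and Tnfaip3 rose (limma adjusted p = 0.035), at the same differences. In that fit 3.85% of probe sets passed. With probe sets above the median of all means, of which 0.714% passed, their adjusted p-values were 0.094 and 0.089 in limma. In data simulated for this comparison, a change of 0.5 (log2), larger than any among the 9 genes, was recovered by limma in 17.2% of cases. The simulated spread was that of all probe sets, whose median SE was 0.10. The SE of each of the 9 genes was smaller, at most 0.086 (Rel), so that share need not hold for them.

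Nfkbiz encodes IkB zeta, a nuclear IkB protein that works as a cofactor for a subset of NF-kB target genes rather than as a cytoplasmic trap. Its levels were 5.03, 5.23 and 5.18 in JG-98 samples, against 5.14, 5.22 and 5.03 in control samples. The groups overlapped almost fully, with a difference of 0.02 (95% interval -0.19 to 0.22). Its mean of 5.14 lay below the 95th percentile of the genes of other tissues, so background is not excluded there.

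**Figure D2:**
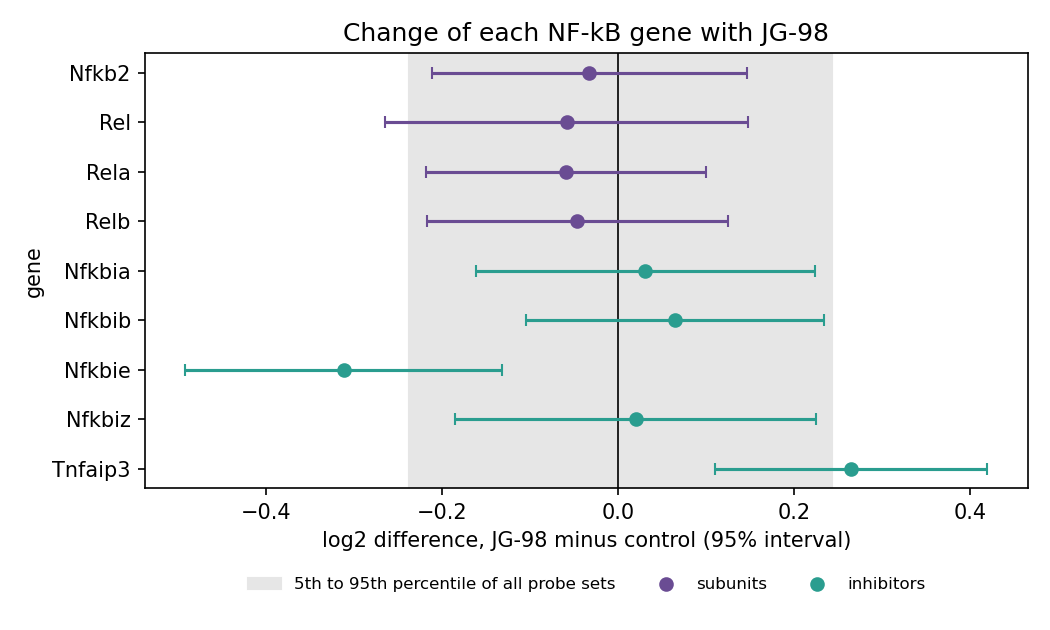
Log2 difference, JG-98 minus control, of each of the 9 genes (point) with its 95% interval from limma (bar), subunits in purple and inhibitors in green, and the 5th to 95th percentile of all 25206 probe sets as a grey band from -0.24 to 0.24. Nfkbie at -0.31 and Tnfaip3 at 0.26 lie outside the band, and the intervals of the other 7 genes cross 0.

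Of the 5 inhibitors, 4 had a difference above 0, as did 50.3% of all probe sets. Set class against class, the subunits averaged 0.05 lower and the inhibitors 0.01 higher with JG-98, a difference of -0.06 between the classes. On each array the mean of the 4 subunit values minus the mean of the 5 inhibitor values was 1.15, 1.10 and 1.08 in JG-98 samples, against 1.14, 1.20 and 1.19 in control samples (1.11 ± 0.038 and 1.17 ± 0.031, SD, n = 3 each). These groups overlapped, through JG-98 replicate 1 and control replicate 1. The difference between the classes was -0.084 without the first of these arrays and -0.080 without the second. The overlap then ends by construction, because these arrays alone made it, so nothing is drawn from its absence. The mean of the 4 subunits alone was 7.78, 7.76 and 7.75 in JG-98 samples, against 7.79, 7.86 and 7.79 in control samples, without overlap. The gap was narrow, between 7.775 for the highest JG-98 array and 7.786 for the lowest control array. The array medians, at 4.08 to 4.24, differed by more than that, so the separation may hinge on the scaling of the arrays. That of the 5 inhibitors was 6.62, 6.66 and 6.67 in JG-98 samples, against 6.65, 6.66 and 6.60 in control samples, with overlap. A level on an array depends on its probes, so only the change of that number between samples can be read. The inhibitor mean joins Nfkbie and Tnfaip3, which differed in opposite directions, and so does not describe either. No test was made of the class means, because the genes were chosen with results of these arrays known.

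By the root mean square distance between values centred on each gene's own mean, over 6 arrays, the 5 genes nearest to the pattern of Nfkbie were Fbxo47, Aldh1l1, Kif20a, Kif18b and Btf3l4. Fbxo47 was nearest, at a distance of 0.017, but lay at a mean of 3.26 in JG-98 samples and 3.55 in control samples, where background is not excluded. Aldh1l1 was at a distance of 0.033, with a mean of 6.08 in JG-98 samples and 6.43 in control samples. Btf3l4 was at 0.035, with 6.18 in JG-98 samples and 6.48 in control samples. The mitotic kinesin genes Kif20a and Kif18b were at distances of 0.033 and 0.034. Kif20a had a mean of 8.81 in JG-98 samples and 9.13 in control samples, and Kif18b had 7.97 in JG-98 samples and 8.25 in control samples.

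The pathway around these genes was read from 8 lists with 142 measured genes. None passed an adjusted p under 0.05 in limma with all arrays and probe sets. At an unadjusted p under 0.05, 17 were higher and 14 lower with JG-98, beside 3.84% and 4.48% of all probe sets. The groups did not overlap for 50 of the 142 genes, or 35.2%, with 29 higher and 21 lower, beside 7.12% and 8.44% of all probe sets. Brightness enters these counts, since 104 of the 142 lay above the 95th percentile of the genes of other tissues. Of all probe sets above it, 28.4% had groups that did not overlap and 13.3% were past the unadjusted p. The median difference of the 142 genes was 0.0006, beside 0.0008 over all probe sets. Without JG-98 replicate 3 the counts at an unadjusted p were 18 higher and 11 lower, when 11.3% of all probe sets were past it.

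Receptors that feed NF-kB had mostly negative differences. Of 19 measured, 14 were below 0 with a median of -0.10, and 4 were past an unadjusted p, each lower, as were 4.48% of all probe sets. Tlr7, an endosomal sensor of RNA, had levels of 9.43, 9.53 and 9.08 in JG-98 samples, against 9.66, 9.71 and 9.69 in control samples (difference -0.34 ± 0.12, limma adjusted p = 0.54). Clec7a, the receptor for fungal beta-glucan, had 8.99, 9.03 and 8.80 in JG-98 samples, against 9.17, 9.16 and 9.19 in control samples. In both genes JG-98 replicate 3 was the lowest array, and every JG-98 sample was below every control. Il1r1, an interleukin-1 receptor chain, was at -0.21 ± 0.065, at means of 2.57 in JG-98 samples and 2.79 in control samples where background is not excluded. Without JG-98 replicate 3 the median of the 19 receptors was -0.05, with 13 below 0 and 5 past an unadjusted p, as were 11.3% of all probe sets.

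Among the adaptors of the TRAF, IRAK and RIP families, 13 of 18 were below 0, with a median of -0.06. Traf5, an adaptor of TNF receptors, was at -0.22 ± 0.073, at a mean of 5.37 where background is not excluded. The ubiquitin ligase gene Birc3, itself an NF-kB target, was at -0.18 ± 0.075. Irak2, a kinase that sustains Toll-like receptor signalling, was at 0.17 ± 0.064 (limma adjusted p = 0.56). These 3 were past an unadjusted p, 1 higher and 2 lower, beside 8.32% of all probe sets. Without JG-98 replicate 3, when 11.3% of all probe sets were past it, the count was 0 higher and 1 lower.

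In the IKK complex and its kinases, 6 of 12 measured genes were above 0 and 6 below, with a median of -0.01. Map3k8 encodes Tpl2, a kinase that the NF-kB precursor p105 holds inactive and that drives ERK signalling after Toll-like receptor ligands. Its levels were 6.45, 6.51 and 6.40 in JG-98 samples, against 6.81, 6.84 and 6.78 in control samples. Every JG-98 sample was below every control by a margin larger than the spread of either group, and the difference was -0.35 ± 0.065 (limma adjusted p = 0.26). It passed, as lower, among probe sets above the median of all means (limma adjusted p = 0.0496), among those above the 95th percentile of the genes of other tissues (0.016) and with an intensity trend, under which 1.01% of all probe sets passed (0.040). Ikbkg, which encodes NEMO, the regulatory subunit of IKK, was at 0.22 ± 0.10, and Ikbkb, a catalytic subunit, at -0.10 ± 0.074.

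Of 14 genes for the ubiquitin machinery that acts on IkB and NEMO, 6 were above 0 and 8 below. An unadjusted p under 0.05 was met by 2, each lower, beside 8.32% of all probe sets in either direction. Ube2d1, a ubiquitin-conjugating enzyme, was at -0.21 ± 0.062. Ube2v1, the partner of Ube2n in making K63-linked chains, was at -0.62 ± 0.21, with levels of 5.63, 4.90 and 4.91 in JG-98 samples, against 5.98, 5.66 and 5.65 in control samples. The mean of Ube2v1 was 5.46, where background is not excluded, and its close relatives can share probes. Cul1, the scaffold of the ligase that marks IkB, was at 0.15 ± 0.075. Without JG-98 replicate 3, 7 were above 0 and 7 below, with 2 higher and 1 lower past an unadjusted p, beside 11.3% of all probe sets.

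Of 19 other brakes on the pathway, 10 were above 0, with a median of 0.01 and 1 gene past an unadjusted p, beside 8.32% of all probe sets. That gene was Tnip3, which encodes an A20-binding protein, with levels of 7.86, 7.99 and 8.09 in JG-98 samples, against 7.75, 7.74 and 7.80 in control samples. Every JG-98 sample exceeded every control (difference 0.22 ± 0.078, limma adjusted p = 0.53). Without JG-98 replicate 3, 13 of the 19 were above 0, with a median of 0.03. Pdlim2, which targets RelA for degradation, was at 0.19 ± 0.080, and Rnf11, a partner of A20, at 0.10 ± 0.062. Of 7 further genes for IkB-like or IkB-binding proteins, 5 were above 0 and none was past an unadjusted p. Nkiras1, a small GTPase that binds IkB, was at 0.20 ± 0.097, at a mean of 4.94 where background is not excluded. The ankyrin repeat gene Ankrd33b was at 0.09 ± 0.060, and Bcl3, a nuclear partner of p50 and p52, at 0.10 ± 0.084.

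Of 24 target genes for cytokines and chemokines, 18 were above 0 with a median of 0.11. An unadjusted p under 0.05 was met by 7, each higher, as it was by 3.84% of all probe sets. Only 6 of the 24 had a mean above the 95th percentile of the genes of other tissues. Csf1, the growth factor on which macrophages depend, had levels of 6.02, 5.99 and 5.68 in JG-98 samples, against 5.11, 4.95 and 4.84 in control samples. Every JG-98 sample exceeded every control, by 0.93 ± 0.12 (limma adjusted p = 0.13), and its control mean of 4.96 lay where background is not excluded. Ccl2, a chemokine that draws monocytes, was at 0.59 ± 0.072 and its neighbour in function Ccl7 at 0.61 ± 0.096 (limma adjusted p = 0.13 and 0.20). Ccl2 passed, as higher, in all 4 fits in which any pathway gene was called, and Ccl7 in 3 of them. Csf1 also passed in 3, namely above the median of all means (limma adjusted p = 0.032), with an intensity trend (0.0089) and with array weights (0.030). Tnf, named after its values were seen, was at 0.26 ± 0.065 and passed among probe sets above the 95th percentile of the genes of other tissues (limma adjusted p = 0.036) and with an intensity trend (0.044). Without JG-98 replicate 3 the list had a median of 0.07 and again 7 genes past an unadjusted p, each higher, beside 11.3% of all probe sets in either direction.

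Of 29 other targets, 16 were above 0 and 13 below, with 8 higher and 5 lower at an unadjusted p, and 8 and 3 without JG-98 replicate 3. Over all probe sets 3.84% were higher and 4.48% lower at that mark, and 11.3% were past it without that array. Saa3, an acute phase protein, was at 1.06 ± 0.19, and Lcn2, a siderophore-binding protein, at 0.62 ± 0.13. Their means were 5.39 and 4.85 in JG-98 samples and 4.34 and 4.23 in control samples, so background is not excluded in either group. Saa3 was highest on JG-98 replicate 3, at 5.81, against 5.17 and 5.20 on the other JG-98 arrays. Ier3, an early response gene, was at -0.38 ± 0.083, with levels of 6.05, 6.01 and 5.85 in JG-98 samples, against 6.36, 6.42 and 6.27 in control samples. Genes classed as NF-kB targets lay on both sides of 0, as Nfkbie and Tnfaip3 did.

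**Figure D3:**
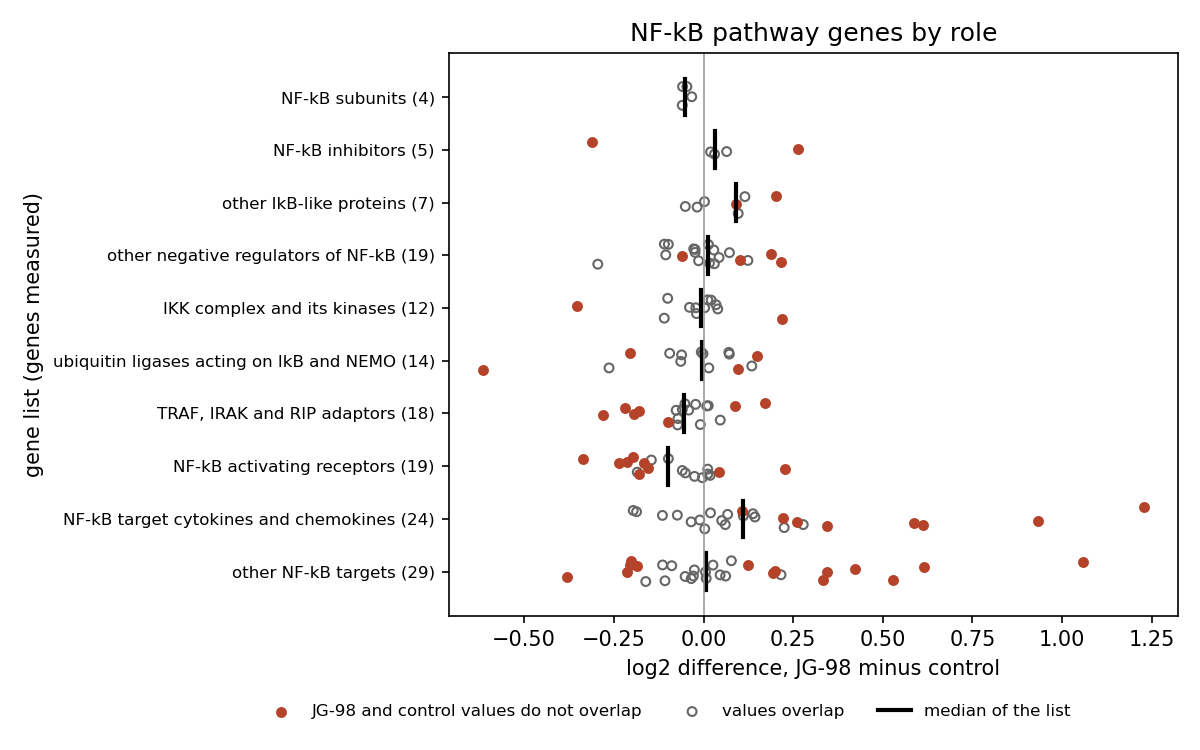
Log2 difference, JG-98 minus control, of each measured gene by role (filled points for genes whose JG-98 and control values do not overlap, open points for the rest, black bar for the median of the list). The 4 subunits lie together near -0.05, the receptor list has a median of -0.10 and the cytokine and chemokine list one of 0.11.

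Across 14 other settings, Nfkbie stayed below 0, between -0.35 and -0.26, and Tnfaip3 above 0, between 0.24 and 0.29, with an unadjusted p under 0.05 in limma in all 14. Rela and Relb stayed below 0 and Nfkbib above 0 in these 14 settings, while Nfkb2, Rel, Nfkbia and Nfkbiz changed sign in at least 1.

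**Figure D4:**
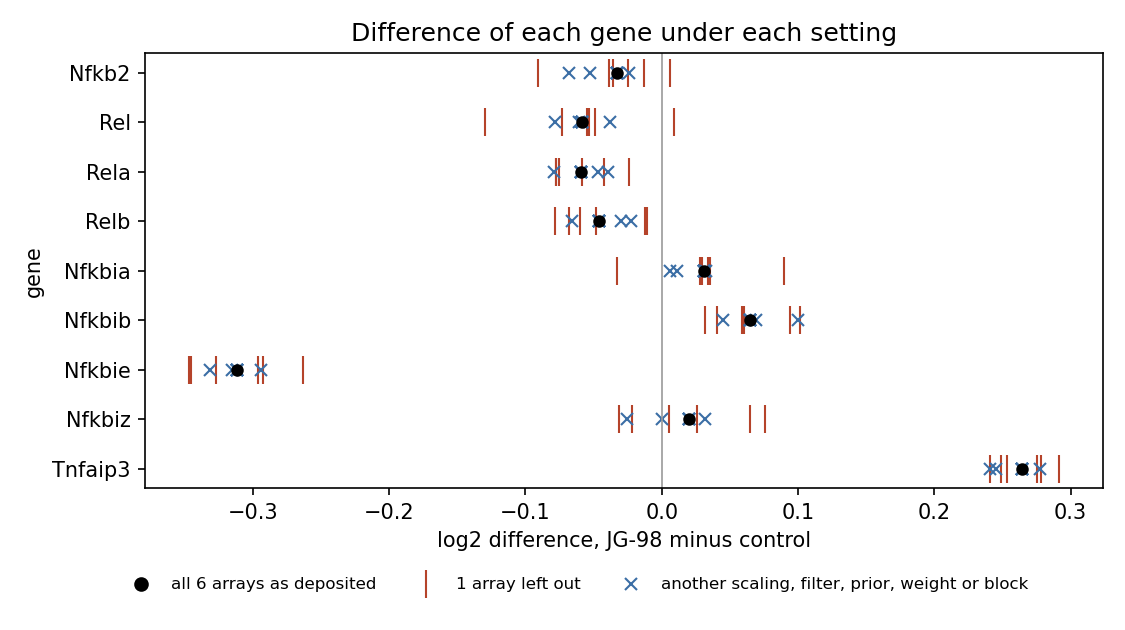
Log2 difference, JG-98 minus control, of each gene with all 6 arrays as deposited (black point), with 1 array left out (red bars) and under another scaling, filter, prior, array weight or block (blue crosses). The values of Nfkbie and Tnfaip3 stay clear of 0, and those of Nfkb2, Rel, Nfkbia and Nfkbiz reach across it.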

How the data were processed

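RNA of 6 samples, 3 per group, was hybridised to 1 Affymetrix array each. The deposited table holds a log2 expression value for every probe set on every array. Per the submitters' processing notes, which state no roles, RMA, affy and R 2.15.1 were used. RMA, as generally defined, normalizes arrays against each other and would remove a shift common to all genes. No genome build is given in the sources used here. Precision is limited by the number of arrays.

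Of 25206 probe sets, the platform annotation gave 1 symbol for 23185 and none for 2021, and current symbols came from a RefSeq table by Entrez number. Groups were taken from the labels. The test of JG-98 minus control was limma's (version 3.58.1, R 4.3.3; two-sided, lmFit then eBayes, Benjamini-Hochberg over all probe sets, threshold 0.05, 2.59 prior and 4 residual degrees of freedom). SE and intervals are the moderated ones. Genes named are the 9 members, the 3 with the smallest p in each list, and the 5 patterns nearest to the member with the smallest p. Adgre1, Spi1, Kdr and Tnf fall outside this rule and were chosen after their values were seen. Genes and lists were chosen with earlier results of these data known.

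The fit was tested on simulated data, 20 simulations of 25206 probe sets with 200 changed: 17.2%, 79.6% and 94.5% of changes of 0.5, 1 and 2 on the log2 scale were recovered, and 5.89% of calls were false. Alternatives were array weights (statmod 1.5.0), leaving out each array, the replicate number as a block, an intensity trend or robust prior in eBayes, 2 filters on dim probe sets, median centring and quantile normalization.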

Additional observations from a re-analysis of the deposited data

How the results depend on the processing

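The count of members called, 0 in limma with 2 at an unadjusted p under 0.05, became 2 (Nfkbie and Tnfaip3) among probe sets above the 95th percentile of the genes of other tissues and was 0 in the other 13 settings. The count over all probe sets, 10, became 90 above the median of all means, 346 above the 95th percentile of the genes of other tissues, 254 with an intensity trend and 25 with array weights. Leaving out 1 array gave 0 to 5, the 5 coming without JG-98 replicate 3. In those same 4 fits the pathway lists had 4, 7, 8 and 2 genes called, against 0. Fewer probe sets are tested under a filter, and the dim ones are gone from the variance prior. For the rest the cause was not tested.

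Among the genes that changed sign, leaving out 1 array gave -0.091 to 0.0057 for Nfkb2, -0.13 to 0.0090 for Rel, -0.033 to 0.090 for Nfkbia and -0.031 to 0.076 for Nfkbiz, whose difference was -0.025 with array weights. Nfkb2 turned without JG-98 replicate 2, Rel and Nfkbia without JG-98 replicate 3, and Nfkbiz without JG-98 replicate 2 (-0.022) or control replicate 3. The cause was not tested. The difference between the classes ranged from -0.084 to -0.043 over the 14 settings, each within 1 SD between replicates of the value with all arrays.

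Adding the replicate number to the fit as a block left 0 probe sets called by limma, with 1855 at an unadjusted p under 0.05. Same-numbered arrays deviated from their group means with correlations of 0.095, -0.13 and 0.10 over probe sets. JG-98 replicate 1 correlated best with the control of its own number, and JG-98 replicates 2 and 3 each with a control of another number. Deviations from a mean of 3 arrays constrain each other. These values therefore cannot decide whether same-numbered arrays were handled together.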
